A study of Homo sapiens with 6 samples.

Results

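The hypoxia-inducible factor (HIF) pathway was examined in LOX-IMVI, a long-established line of human melanoma cells. It was represented by 36 genes, taken by symbol from the 47432 genes of the count tables. Of these, 3 encode HIF subunits, 5 encode the oxygen-sensing hydroxylases and the ubiquitin ligase subunit VHL, and 28 are known HIF target genes. Genes of glycolysis were left out. The cells had been transduced with a lentiviral pLKO.1 construct and selected with puromycin, and carried either a control construct (shCtrl) or a short hairpin RNA against NFKBIZ (shNFKBIZ), the gene for the nuclear NF-κB co-regulator IκBζ. RNA was sequenced from 3 libraries per group. A single hairpin sequence was used, so that loss of NFKBIZ and other effects of this hairpin cannot be told apart. The labels name no low-oxygen treatment.

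HIF is a transcription factor of an oxygen-regulated alpha subunit, HIF-1α (HIF1A) or HIF-2α (EPAS1), and the stable partner ARNT. With oxygen present, the prolyl hydroxylases encoded by EGLN1, EGLN2 and EGLN3 mark the alpha subunit for the ubiquitin ligase subunit VHL, and HIF1AN hydroxylates an asparagine that HIF needs to recruit co-activators. When oxygen is scarce the alpha subunit accumulates and genes for vessel growth, pH control, matrix modification and mitochondrial turnover are induced through a short promoter or enhancer element, the hypoxia response element. Most of this control acts on the HIF protein, which RNA counts do not measure.

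The libraries held between 22264473 and 24624839 exon reads, and intron reads made up 7.16% to 8.15% of all reads in genes. The groups were separated along the first principal component (72.6% of the variance). The targeted gene NFKBIZ counted 1519, 1629 and 1674 exon reads in the shCtrl libraries and 474, 477 and 468 in the shNFKBIZ libraries (log2 fold change -1.78, SE 0.0581, adjusted P 7.2e-17, edgeR quasi-likelihood test). Of 6 markers of the melanocyte lineage, MITF was at 3.21 TPM in shCtrl and the other 5 were at or below 0.294 TPM, while AXL, a marker of dedifferentiated melanoma, was at 407 TPM. NGFR, another marker of that state, was at 0.051 TPM. Of the lineage and state markers, MITF, AXL and SOX9 alone had enough exon reads to be tested. Each was called (adjusted P at most 0.05, edgeR), as were 65.3% of all genes tested. MITF fell to 2.00 TPM (log2 fold change -0.77, SE 0.131), AXL rose to 486 TPM (0.17, SE 0.0430), and SOX9, also a marker of the dedifferentiated state, rose from 21.6 to 55.1 TPM (1.27, SE 0.0540). Their part in the changes of the HIF genes was not tested. The 3 leukocyte and 3 endothelial markers had group means of at most 0.299 TPM. Among 3 epithelial markers EPCAM and CDH1 were at most at 0.202 TPM, and KRT18 was at 396 TPM in shCtrl and 317 TPM in shNFKBIZ. TPM is a level scaled to exon length and library depth. The exon length used is that annotated for the whole gene, so that ranks between genes in TPM depend on it.

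Of the 36 genes, 32 had enough exon reads to be tested. In shNFKBIZ cells 18 of them were lower and 9 were higher (adjusted P at most 0.05, edgeR), while 5 were not called. Over all 13843 genes tested, 65.3% were called, 32.8% lower and 32.5% higher, so that calls in themselves were common in this comparison. With a change of at least 2-fold as a further limit, 8 of the 32 were lower (EPAS1, EGLN1, STC1, ADM, PLOD2, BHLHE40, MXI1 and DDIT4) and 1 was higher (ANGPTL4), against 8.96% of all genes tested, 5.12% lower and 3.84% higher. The median log2 fold change was -0.55 over the 32 genes and 0.0043 over all genes tested. The 7 tested sensors and factors had a median of -0.88, with 4 lower and 2 higher, and the 25 tested targets had a median of -0.54, with 14 lower and 7 higher. The CPM (exon reads scaled to library size and TMM factor) of the groups did not overlap for 25 of the 32 genes and for 68.6% of all genes tested. In a bulk sample, fewer cells with a transcript and less of it per cell cannot be told apart.

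All 3 HIF subunit genes were lower in shNFKBIZ cells. HIF1A (ENSG00000100644, chromosome 14, 61695513 to 61748259, plus strand of build hg38) counted 4213, 4320 and 4029 exon reads in the shCtrl libraries and 2177, 1981 and 2296 in the shNFKBIZ libraries. The groups lay far apart, and the level fell from 133 ± 2.71 to 71.3 ± 4.10 TPM (SD, n = 3), with log2 fold change -0.97 (SE 0.0438, adjusted P 3.47e-14, edgeR). This is 1.97-fold lower, just short of the 2-fold limit. EPAS1 (ENSG00000116016, chromosome 2, 46293667 to 46386697, plus strand) was the least abundant of the subunit genes and changed by more. It counted 937, 1003 and 735 exon reads in the shCtrl libraries and 329, 299 and 351 in the shNFKBIZ libraries, with 19.9 ± 2.09 against 7.64 ± 0.484 TPM (log2 fold change -1.46, SE 0.0903, adjusted P 5.9e-09, edgeR). The shCtrl library with the fewest EPAS1 reads still held more than 2 times those of any shNFKBIZ library. ARNT (ENSG00000143437, chromosome 1, 150809713 to 150876708, minus strand), the shared partner of both alpha subunits, counted 1155, 1199 and 1019 exon reads in the shCtrl libraries and 615, 626 and 610 in the shNFKBIZ libraries. Its level fell from 28.4 ± 0.850 to 16.4 ± 0.493 TPM (log2 fold change -0.88, SE 0.0532, adjusted P 3.27e-12, edgeR). HIF1A kept the rank of the most abundant subunit gene in both groups.

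The sensors did not move together. VHL (ENSG00000134086, chromosome 3, 10141778 to 10153667, plus strand) counted 1212, 1280 and 1271 exon reads in the shCtrl libraries and 1652, 1691 and 1709 in the shNFKBIZ libraries. It rose from 41.0 ± 2.73 to 57.6 ± 1.20 TPM (log2 fold change 0.41, SE 0.0451, adjusted P 5.57e-08, edgeR). HIF1AN (ENSG00000166135, chromosome 10, 100529072 to 100559998, plus strand) counted 1676, 1853 and 1704 exon reads in the shCtrl libraries and 2290, 2301 and 2402 in the shNFKBIZ libraries. It rose from 20.5 ± 0.962 to 28.7 ± 0.473 TPM (log2 fold change 0.40, SE 0.0411, adjusted P 1.67e-08, edgeR). The genes for the enzymes and ligase subunit that restrain HIF thus included 2 that rose, by 1.33-fold and 1.32-fold. Their groups did not overlap in CPM, as was so for 68.6% of all genes tested.

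EGLN1 (ENSG00000135766, chromosome 1, 231363751 to 231422287, minus strand), the main prolyl hydroxylase and itself a known HIF target, fell instead. It counted 3533, 3422 and 3021 exon reads in the shCtrl libraries and 1455, 1427 and 1527 in the shNFKBIZ libraries, and 101 ± 4.38 against 46.7 ± 0.904 TPM (log2 fold change -1.19, SE 0.0445, adjusted P 8e-16, edgeR). An overlapping gene on the same strand shares reads with it, and only 23.3% of its exon reads were unique. The unique exon reads alone had a log2 fold change of -1.34. EGLN2 (ENSG00000269858, chromosome 19, 40798996 to 40808434, plus strand) was at 44.4 ± 0.614 TPM in shCtrl and 49.1 ± 1.81 TPM in shNFKBIZ and was not called (log2 fold change 0.063, SE 0.0408, adjusted P 0.186, edgeR). Its value is uncertain, since 9.66% of its exon reads were unique and the others are shared with the read-through gene RAB4B-EGLN2. EGLN3 (ENSG00000129521, chromosome 14, 33924227 to 34462774, minus strand), in many cells a strongly hypoxia-induced member, counted 1, 5 and 6 exon reads in the shCtrl libraries and 8, 4 and 8 in the shNFKBIZ libraries. It was too low to be tested. The ratio of the summed reads was 1.76 (exact 95% interval 0.818 to 3.94, for counting error only). A difference was not detectable with so few reads.

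**Figure D1:**
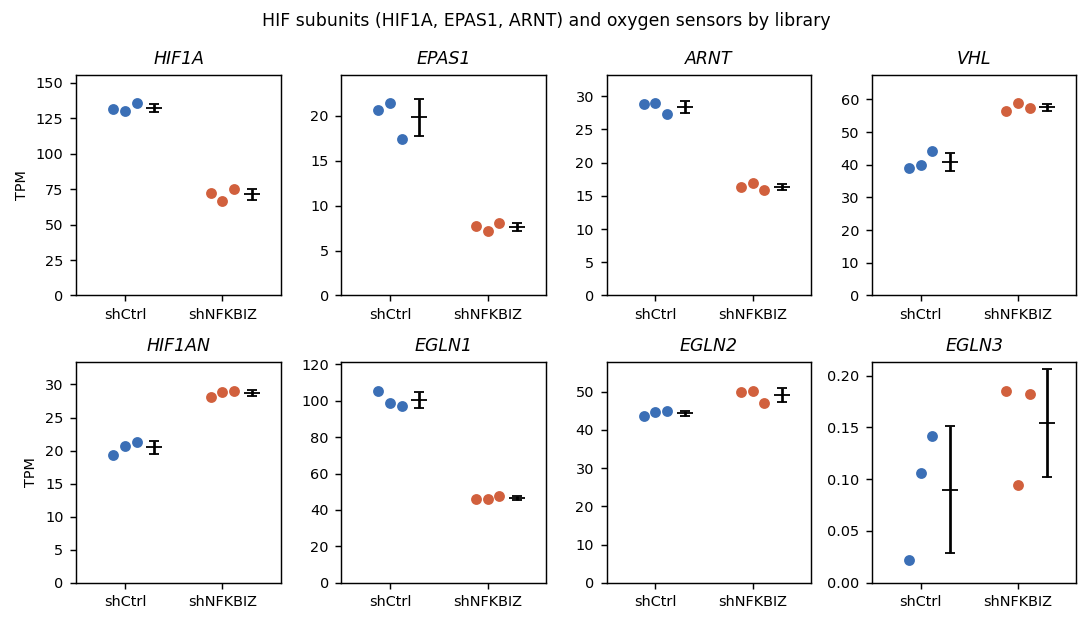
Level in TPM (vertical axes, from 0, each gene on its own scale) of the HIF subunit genes and the sensor genes in each of the 3 shCtrl and 3 shNFKBIZ libraries. Points are libraries, and the bar beside them is the mean ± SD. HIF1A, EPAS1, ARNT and EGLN1 sit lower and VHL and HIF1AN higher in every shNFKBIZ library, while EGLN3 stays below 0.2 TPM.

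Among the target genes, those for secreted proteins showed changes in both directions. STC1 (stanniocalcin, a secreted glycoprotein linked to calcium and phosphate handling; ENSG00000159167, chromosome 8, 23841929 to 23854806, minus strand) counted 2032, 2286 and 1990 exon reads in the shCtrl libraries and 577, 644 and 604 in the shNFKBIZ libraries. It fell from 82.9 ± 3.53 to 25.2 ± 1.71 TPM (log2 fold change -1.80, SE 0.0515, adjusted P 8.45e-18, edgeR). ADM (adrenomedullin, a vasodilator peptide; ENSG00000148926, chromosome 11, 10305073 to 10307397, plus strand) counted 1763, 1674 and 1714 exon reads in the shCtrl libraries and 867, 823 and 803 in the shNFKBIZ libraries. It fell from 121 ± 7.99 to 61.1 ± 2.83 TPM (log2 fold change -1.06, SE 0.0513, adjusted P 6.46e-14, edgeR). VEGFA, the principal growth factor for blood vessels, counted 1390, 1446 and 1382 exon reads in the shCtrl libraries and 1311, 1551 and 1389 in the shNFKBIZ libraries. The groups overlapped, at 15.9 ± 0.616 and 16.8 ± 1.67 TPM, and no change was called (log2 fold change -0.0031, SE 0.0521, adjusted P 0.963, edgeR).

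ANGPTL4 (a secreted inhibitor of lipoprotein lipase; ENSG00000167772, chromosome 19, 8363289 to 8374370, plus strand) went the other way and had the highest log2 fold change of the 32 genes tested. It counted 38, 41 and 37 exon reads in the shCtrl libraries and 249, 284 and 294 in the shNFKBIZ libraries. It rose from 2.55 ± 0.0670 to 19.0 ± 1.61 TPM, with log2 fold change 2.82 (SE 0.122, adjusted P 1e-14, edgeR) or 7.04-fold. Of the genes that encode surface enzymes of pH control, neither was expressed at a testable level. CA9, widely used as a marker of hypoxic tumour cells, had 2, 2 and 3 exon reads in shCtrl and none in the shNFKBIZ libraries, which allows a ratio of up to 0.731 (exact 95% interval on 7 and 0 summed reads, counting error only). CA12 had 0 exon reads in all 6 libraries.

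The enzymes of collagen modification were called lower or not called, and none was called higher. PLOD2 (a lysyl hydroxylase that sets collagen cross-links; ENSG00000152952, chromosome 3, 146035139 to 146163725, minus strand) counted 6270, 5801 and 5834 exon reads in the shCtrl libraries and 1443, 1335 and 1442 in the shNFKBIZ libraries. It fell from 67.1 ± 4.27 to 16.6 ± 0.507 TPM (log2 fold change -2.10, SE 0.0459, adjusted P 5.55e-19, edgeR). PLOD1, another lysyl hydroxylase, was at 49.3 ± 2.79 and 51.5 ± 1.08 TPM and was not called (log2 fold change -0.017, SE 0.0443, adjusted P 0.759, edgeR). In shCtrl PLOD2 was the more abundant of this pair, and in shNFKBIZ PLOD1 was. P4HA1, a catalytic subunit of the collagen prolyl hydroxylase, counted 1306, 1365 and 1237 exon reads in the shCtrl libraries and 667, 594 and 718 in the shNFKBIZ libraries (log2 fold change -0.995, SE 0.0575), and fell 1.99-fold, just outside the 2-fold limit. P4HA2, the alternative catalytic subunit, fell by less (log2 fold change -0.39, SE 0.0532). LOXL2, a lysyl oxidase and the target with the highest TPM in shCtrl (140 ± 5.72), fell slightly to 135 ± 3.11 TPM (log2 fold change -0.13, SE 0.0346). That call was lost with library size alone as scaling (log2 fold change -0.044), where the median over all genes was 0.0937. LOX counted 2, 0 and 0 exon reads in the shCtrl libraries and 3, 2 and 4 in the shNFKBIZ libraries and was not tested (ratio 4.74, exact 95% interval 0.982 to 45.1).

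Of the mitochondrial targets 3 fell and 1 rose, each by less than 2-fold. BNIP3, a receptor for the removal of mitochondria by autophagy, counted 1886, 1980 and 1733 exon reads in the shCtrl libraries and 1116, 1163 and 1198 in the shNFKBIZ libraries, and fell from 75.1 ± 0.945 to 48.9 ± 1.61 TPM (log2 fold change -0.70, SE 0.0441). Its relative BNIP3L, with a similar function, counted 1021, 1010 and 908 exon reads in the shCtrl libraries and 667, 613 and 733 in the shNFKBIZ libraries (log2 fold change -0.56, SE 0.0599). FAM162A, which encodes a mitochondrial protein induced in hypoxia, fell from 8.94 ± 0.422 to 5.81 ± 0.542 TPM (log2 fold change -0.71, SE 0.0662). AK4, an adenylate kinase of the mitochondrial matrix, rose from 7.31 ± 0.207 to 9.44 ± 0.118 TPM (log2 fold change 0.29, SE 0.0690). The groups did not overlap in CPM for any of these genes, as was so for 68.6% of all genes tested. For AK4, 72.8% of the exon reads were unique.

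The targets that act in transcription and chromatin contained the lowest log2 fold change of all 32 genes tested. BHLHE40 (a repressor of circadian and metabolic genes that binds E-boxes; ENSG00000134107, chromosome 3, 4979437 to 4985323, plus strand) counted 2092, 2318 and 2004 exon reads in the shCtrl libraries and 499, 461 and 469 in the shNFKBIZ libraries. It fell from 99.0 ± 3.44 to 23.2 ± 0.955 TPM, with log2 fold change -2.18 (SE 0.0524, adjusted P 4.29e-19, edgeR). Its paralog BHLHE41 was much less abundant, with 38, 32 and 28 exon reads in the shCtrl libraries and 55, 48 and 37 in the shNFKBIZ libraries. The groups overlapped, and the call for a rise was marginal (log2 fold change 0.50, SE 0.214, adjusted P 0.0457, edgeR). That call was lost without shCtrl replicate 2 (0.46) or 3 (0.43) and without shNFKBIZ replicate 1 (0.36) or 2 (0.48). It was also lost in DESeq2 (0.50), in the likelihood ratio test (0.50), without a filter (0.49) and with total gene reads (0.48). MXI1 (an antagonist of MYC; ENSG00000119950, chromosome 10, 110207605 to 110287365, plus strand) counted 890, 904 and 836 exon reads in the shCtrl libraries and 330, 344 and 323 in the shNFKBIZ libraries. It fell from 24.2 ± 0.366 to 9.62 ± 0.472 TPM (log2 fold change -1.41, SE 0.0583, adjusted P 4.31e-15, edgeR).

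KDM3A, a histone H3 lysine 9 demethylase, rose by a small amount, from 17.4 ± 1.40 to 21.3 ± 0.692 TPM (log2 fold change 0.21, SE 0.0477). RORA, a nuclear receptor of the circadian system, counted 42, 45 and 43 exon reads in the shCtrl libraries and 66, 62 and 74 in the shNFKBIZ libraries (log2 fold change 0.62, SE 0.173), a rise that DESeq2 did not call (0.62). ANKRD37, which encodes an ankyrin repeat protein, counted 58, 50 and 44 exon reads in the shCtrl libraries and 26, 30 and 45 in the shNFKBIZ libraries. Its fall was called (log2 fold change -0.60, SE 0.218), but DESeq2 did not call it (-0.61), and neither did the fits without shCtrl replicate 1 (-0.50) or without shNFKBIZ replicate 1 (-0.45) or 2 (-0.52). The 3 low genes of this group, BHLHE41, RORA and ANKRD37, therefore rest on few reads.

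Among the remaining targets DDIT4 stood out. DDIT4 (an inhibitor of the growth kinase complex mTORC1, also named REDD1; ENSG00000168209, chromosome 10, 72273919 to 72276036, plus strand) counted 557, 748 and 563 exon reads in the shCtrl libraries and 145, 142 and 140 in the shNFKBIZ libraries. The shCtrl libraries were spread and the shNFKBIZ libraries nearly alike, and the level fell from 47.8 ± 6.49 to 11.5 ± 0.325 TPM (log2 fold change -2.14, SE 0.0999, adjusted P 1.5e-12, edgeR). ERO1A, the oxidase that supplies disulfide bonds in the endoplasmic reticulum, fell from 97.3 ± 5.50 to 70.6 ± 1.69 TPM (log2 fold change -0.54, SE 0.0400). NDRG1, a stress-response gene often used as a hypoxia marker, counted 1267, 1365 and 1197 exon reads in the shCtrl libraries and 1278, 1227 and 1236 in the shNFKBIZ libraries. It was not called (log2 fold change -0.047, SE 0.0459, adjusted P 0.384, edgeR). Of its exon reads 76.0% were unique.

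Small rises were called for HILPDA, which inhibits lipolysis at lipid droplets, and for WSB1, a ubiquitin ligase substrate receptor. HILPDA counted 139, 164 and 128 exon reads in the shCtrl libraries and 183, 179 and 172 in the shNFKBIZ libraries (log2 fold change 0.30, SE 0.104). The call was lost in DESeq2 (0.29) and without shCtrl replicate 1 (0.27) or 3 (0.25) or shNFKBIZ replicate 1 (0.27). WSB1 went from 54.2 ± 3.40 to 61.9 ± 3.09 TPM (log2 fold change 0.11, SE 0.0411), with overlap in CPM. Its call was lost without shCtrl replicate 1 (0.070) and without shNFKBIZ replicate 2 (0.085) or 3 (0.11), and also in DESeq2 (0.11) and with total gene reads (0.084). PPFIA4, a liprin scaffold protein, counted 9, 16 and 15 exon reads in the shCtrl libraries and 11, 8 and 2 in the shNFKBIZ libraries and was not called (log2 fold change -0.93, SE 0.437, adjusted P 0.0678, edgeR). It was called lower without shCtrl replicate 1 (-1.15) and without shNFKBIZ replicate 1 (-1.41).

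**Figure D2:**
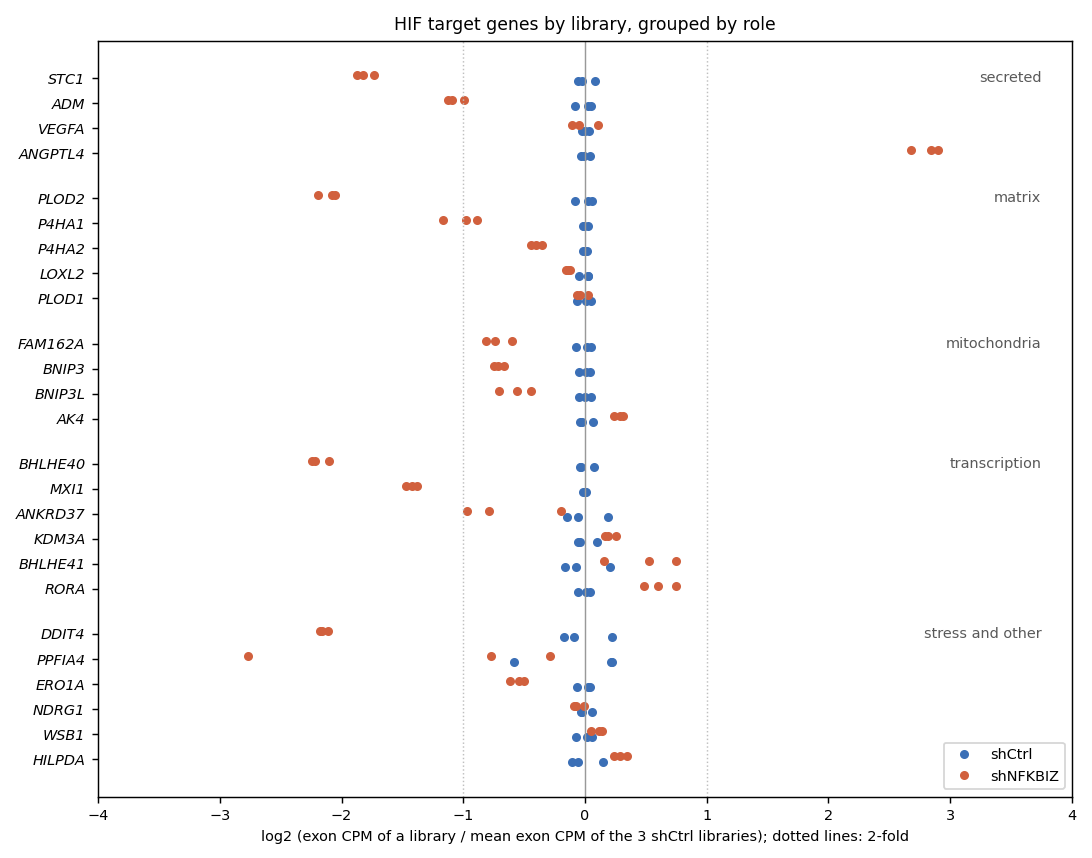
Exon CPM of each library relative to the mean of the 3 shCtrl libraries (horizontal axis, log2, dotted lines at 2-fold) for the 25 HIF targets tested, grouped by role. Each point is a library. The shNFKBIZ points of STC1, PLOD2, BHLHE40, MXI1 and DDIT4 lie beyond the lower 2-fold line, those of ANGPTL4 beyond the upper one, and those of VEGFA, PLOD1 and NDRG1 overlap the shCtrl points.

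The order of levels in shCtrl ran from LOXL2 (140 TPM), HIF1A (133 TPM), ADM (121 TPM), EGLN1 (101 TPM), BHLHE40 (99.0 TPM) and ERO1A (97.3 TPM) down to RORA (0.415 TPM), CA9 (0.241 TPM), PPFIA4 (0.224 TPM), EGLN3 (0.0896 TPM), LOX (0.0192 TPM) and CA12. EGLN1, BHLHE40 and ERO1A differed by less than the SD between their libraries in shCtrl. In shNFKBIZ the order began with LOXL2 (135 TPM), HIF1A (71.3 TPM) and ERO1A (70.6 TPM), and the last pair did not differ by more than its SD. These orders are in TPM and depend on the annotated exon length. PLOD2 had more summed exon reads in shCtrl than LOXL2 (17905 against 15360). With its longer exon length (14518 against 5985 bases) it was at 67.1 TPM.

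To ask which changes were also present in unspliced RNA, intron reads were compared in the same way. Of the 36 genes, 25 could be tested on intron reads, and 15 were lower and 2 higher in shNFKBIZ cells. Over all 12119 genes tested on intron reads, 38.8% were called, 19.5% lower and 19.3% higher. At least 2-fold changes were found for 8 genes that were lower and 1 that was higher, against 6.6% of all genes, 3.89% lower and 2.71% higher. Of these, STC1, BHLHE40, EPAS1 and AK4 met the read filter through shCtrl and ANGPTL4 through shNFKBIZ, the group where each was high. With at least 10 counts in every library, which fewer genes reach, 4 of the genes were past 2-fold, all lower. The median log2 fold change of intron reads was -0.62 over the 25 genes and 0.0082 over all genes tested. Among these 25 genes, 15 were lower in exon reads, and 14 of those were also lower in intron reads. Of the 7 that were higher in exon reads, 2 were higher in intron reads (ANGPTL4 and RORA). How often exon and intron calls coincide over all genes was not counted, so these counts cannot be set against a general share.

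All 3 subunit genes were lower in intron reads too. HIF1A had 252, 214 and 204 intron reads in shCtrl and 133, 137 and 114 in shNFKBIZ (log2 fold change -0.89, SE 0.106, adjusted P 1.01e-08, edgeR). Antisense and other genes overlap it, strand was not used in the counting, and 57.8% of its intron reads were unique. These unique reads gave -0.88. EPAS1 had 35, 54 and 36 intron reads in shCtrl and 10, 12 and 8 in shNFKBIZ (log2 fold change -2.13, SE 0.272). ARNT had 115, 118 and 95 against 89, 80 and 96 (log2 fold change -0.40, SE 0.129), a call that was lost without shCtrl replicate 1 (-0.36) or 2 (-0.37) and without shNFKBIZ replicate 2 (-0.30). VHL, at 72, 77 and 79 against 62, 74 and 69 intron reads, and HIF1AN, at 21, 21 and 14 against 19, 17 and 13, were not called in intron reads. The intron reads of EGLN1 fell (log2 fold change -1.30, SE 0.131), but none of them was unique to it.

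The largest fall in intron reads was that of STC1, with 37, 42 and 35 in shCtrl and 4, 4 and 2 in shNFKBIZ (log2 fold change -3.55, SE 0.343). BHLHE40 had 34, 42 and 40 against 5, 6 and 13 intron reads (log2 fold change -2.34, SE 0.298), and PLOD2 258, 243 and 223 against 73, 82 and 72 (-1.76, SE 0.109). BNIP3 (log2 fold change -1.04, SE 0.157), BNIP3L (-1.38, SE 0.244) and P4HA1 (-0.92, SE 0.123) fell as well. ANGPTL4 rose in intron reads, from 8, 4 and 7 to 19, 28 and 25 (log2 fold change 1.81, SE 0.347). ADM and DDIT4 had no intron reads in any library, and could have none. Their exon lengths (2325 and 2118 bases) equal the gene spans, which leave no base to count as intron. VEGFA had between 3 and 12 intron reads and was not tested. RORA is a long gene of which 87.5% of the reads in shCtrl fell in introns, with 310, 333 and 269 intron reads in shCtrl and 385, 468 and 462 in shNFKBIZ (log2 fold change 0.44, SE 0.0781). Several genes lie within or across it.

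Exon and intron changes of a gene were then tested against each other. The difference was called for 8 of the 25 genes, 2 with the exon change lower than the intron change and 6 with it higher, where 28.9% of 11025 genes were called, 15.7% lower and 13.1% higher. The exon change of ARNT was lower than its intron change (difference -0.47, SE 0.134, adjusted P 0.0045, edgeR). Without shNFKBIZ replicate 3 it was -0.38 and not called. PLOD2 had a difference of -0.32 (SE 0.118, adjusted P 0.0294, edgeR), which was lost without shCtrl replicate 3 (-0.27), shNFKBIZ replicate 1 (-0.35) or shNFKBIZ replicate 2 (-0.25) and with unique reads (-0.25).

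Where the exon change was the higher one, the genes were of different kinds. VHL was called higher in exon reads and not called in intron reads (difference 0.67, SE 0.148, adjusted P 0.000177, edgeR). AK4 rose in exon reads while its intron reads fell, from 14, 13 and 11 to 7, 5 and 6 (difference 1.46, SE 0.396, adjusted P 0.00246, edgeR). The intron call of AK4 (log2 fold change -1.15) was lost without shCtrl replicate 1 (-1.07) and without shNFKBIZ replicate 2 (-1.01) or 3 (-1.16). LOXL2 was nearly level in exon reads, while its intron reads fell from 674, 731 and 658 to 437, 435 and 420 (log2 fold change -0.76, SE 0.0641), a difference of 0.65 (SE 0.0709, adjusted P 6.9e-13, edgeR). Introns made up 11.8% of the LOXL2 reads in shCtrl and 8.37% in shNFKBIZ. STC1 fell in both, and less in exon reads (difference 1.81, SE 0.400, adjusted P 0.000186, edgeR). BNIP3L (0.83, SE 0.247) lost its call without shNFKBIZ replicate 3 (0.70), and WSB1 (0.32, SE 0.102) lost it without shCtrl replicate 1 (0.27) or shNFKBIZ replicate 1 (0.28) or 3 (0.26). For HIF1A the difference was -0.070 (SE 0.105, adjusted P 0.665, edgeR).

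**Figure D3:**
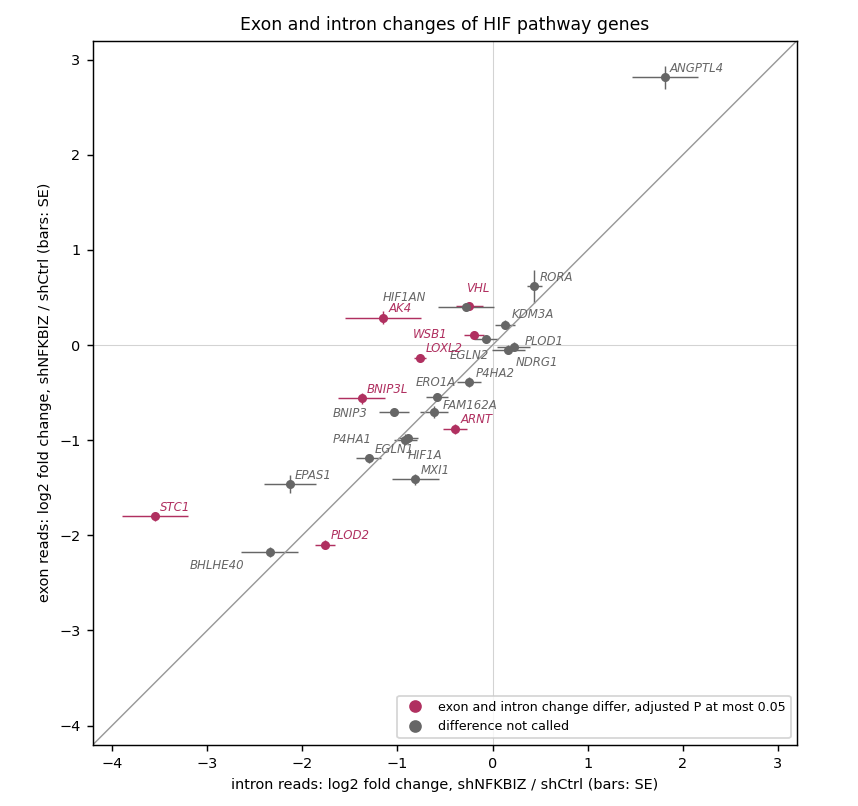
Log2 fold change (shNFKBIZ over shCtrl) of intron reads (horizontal axis) and exon reads (vertical axis) for the 25 genes tested in both, with SE bars. The diagonal marks equal change. Red points are the 8 genes whose exon and intron changes differed (adjusted P at most 0.05). HIF1A and P4HA1 lie near the diagonal, and STC1, AK4 and LOXL2 lie above it.

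Upstream sequences are shown for 6 of the genes that the results turn on, since the hypoxia response element is the sequence that HIF recognises in such genes. They are the most abundant HIF subunit gene, 4 targets that fell by at least 2-fold, among them the gene with the lowest fold change, and the target that rose most. Each is the 250 bases before a RefSeq transcription start (GRCh38.p14), in the direction of transcription. Capitals mark the element core, ACGTG or GCGTG, on either strand (CACGT or CACGC when read on the strand shown). CACGTG, an E-box, contains the core on both strands and counts as a match on each.
HIF1A, chr14:61695263-61695512, plus strand: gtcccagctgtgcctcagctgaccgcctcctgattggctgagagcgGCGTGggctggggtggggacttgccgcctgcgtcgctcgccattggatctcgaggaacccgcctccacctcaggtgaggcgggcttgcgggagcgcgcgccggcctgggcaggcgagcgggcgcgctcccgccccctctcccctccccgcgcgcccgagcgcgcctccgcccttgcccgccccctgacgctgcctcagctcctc
BHLHE40, chr3:4979187-4979436, plus strand: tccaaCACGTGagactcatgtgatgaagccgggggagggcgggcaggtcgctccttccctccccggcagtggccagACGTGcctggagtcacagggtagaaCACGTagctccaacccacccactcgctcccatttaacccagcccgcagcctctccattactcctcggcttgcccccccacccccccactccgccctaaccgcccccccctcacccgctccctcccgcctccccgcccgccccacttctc
DDIT4, chr10:72273674-72273923, plus strand: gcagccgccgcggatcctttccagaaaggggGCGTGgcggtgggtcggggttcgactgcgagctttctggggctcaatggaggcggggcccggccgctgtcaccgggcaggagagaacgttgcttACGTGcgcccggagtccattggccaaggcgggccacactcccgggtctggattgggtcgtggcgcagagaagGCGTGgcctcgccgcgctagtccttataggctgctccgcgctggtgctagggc
ADM, chr11:10304823-10305072, plus strand: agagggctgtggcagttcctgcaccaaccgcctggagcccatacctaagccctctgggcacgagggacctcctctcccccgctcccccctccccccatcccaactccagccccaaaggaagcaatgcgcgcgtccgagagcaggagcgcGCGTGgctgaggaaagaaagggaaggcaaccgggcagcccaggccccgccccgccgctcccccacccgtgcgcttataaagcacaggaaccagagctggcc
MXI1, chr10:110207355-110207604, plus strand: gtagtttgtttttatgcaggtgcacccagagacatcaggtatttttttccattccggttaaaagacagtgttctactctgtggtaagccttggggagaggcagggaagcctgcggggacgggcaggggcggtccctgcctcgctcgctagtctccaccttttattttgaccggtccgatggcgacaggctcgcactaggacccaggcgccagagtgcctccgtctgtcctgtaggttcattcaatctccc
ANGPTL4, chr19:8363905-8364154, plus strand: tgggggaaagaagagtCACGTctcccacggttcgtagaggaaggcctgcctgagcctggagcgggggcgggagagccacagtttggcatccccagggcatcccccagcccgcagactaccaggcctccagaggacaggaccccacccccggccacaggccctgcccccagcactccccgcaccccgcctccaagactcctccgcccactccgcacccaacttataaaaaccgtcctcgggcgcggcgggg

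The BHLHE40 window held 4 matches, the DDIT4 window 3, and the windows of HIF1A, ADM and ANGPTL4 1 each. MXI1, which fell 2.66-fold, had no match in this window. The RefSeq start used for ANGPTL4 lies 866 bases from the start of the gene in the count tables. For RORA (601772 bases), EGLN3 (511700 bases), P4HA2 (68224 bases), HIF1AN (6871 bases), EPAS1 (3740 bases) and PLOD2 (2541 bases) the RefSeq start lies farther away. Of these windows, which are counted in the shares that follow, those of RORA, EGLN3, P4HA2 and HIF1AN held no match. Of the 36 genes 29 had a RefSeq window, and those without one were VHL, VEGFA, STC1, LOXL2, BNIP3L, NDRG1 and HILPDA. At least 1 match was found for 19 of 22 targets (86.4%) and for 4 of 7 sensors and factors (57.1%). Among 10243 genes tested in exon reads that had a window of this length it was found for 58.3%. The targets were listed as known HIF targets, a choice that favours such matches, so their share is not a result of these libraries. Matches were present for 12 of 15 genes that were lower in exon reads (80%) and for 5 of 7 that were higher (71.4%). The NF-κB consensus site, searched on both strands, was found in 1 of the 29 windows, that of ARNT, and in 11.7% of the windows of tested genes. A match is a description of the letters, and distal elements were not searched.

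A further 30 genes of the pathway, HIF cofactors, parts of the degradation machinery and other targets outside glycolysis, were examined in exon reads. Of these, 26 could be tested, and 15 were lower and 3 higher in shNFKBIZ cells (median log2 fold change -0.21). These are 57.7% and 11.5%, against 32.8% lower and 32.5% higher over all genes tested. The list was chosen with earlier results of these data known, so these shares are not an independent check. At least 2-fold changes were found for 3 (11.5%), all lower, which were MIR210HG, EFNA1 and CCNG2, against 8.96% of all genes tested, 5.12% lower. MIR210HG, the host transcript of the hypoxia-induced microRNA miR-210, went from 2.98 ± 0.698 to 0.394 ± 0.191 TPM (log2 fold change -2.97, SE 0.334). EFNA1, an ephrin ligand, went from 1.05 ± 0.165 to 0.183 ± 0.117 TPM (log2 fold change -2.54, SE 0.474). Exon reads of MIR210HG were 32, 47 and 48 in shCtrl and 3, 8 and 5 in shNFKBIZ. Those of EFNA1 were 12, 17 and 13 against 2, 1 and 4. Both genes passed the read filter through the shCtrl libraries alone, where they were high, and rest on few reads. CCNG2, an atypical cyclin linked to growth arrest, went from 9.85 ± 0.303 to 3.899 ± 0.465 TPM (log2 fold change -1.42, SE 0.0885). The 3 that were higher were ELOB (0.17), a subunit of the VHL ligase complex, and the ubiquitin ligases SIAH1 (0.19) and SIAH2 (0.27), which act on prolyl hydroxylases. RBX1 (-0.35) and ELOC (-0.29), other subunits of the VHL complex, were lower, and CUL2 (0.083, adjusted P 0.118, edgeR) was not called. Of the co-activators, EP300 was lower (-0.24) and CREBBP was not called (0.0061, adjusted P 0.903, edgeR). Among the 4 that were too low to test, HIF3A, ARNT2 and EPO had similar or near-zero reads in both groups, and for RAB20 the reads summed to 4 over shCtrl and 13 over shNFKBIZ (ratio 3.43, exact 95% interval 1.06 to 14.4).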

How the data were processed

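RNA-seq counts of 3 shCtrl and 3 shNFKBIZ libraries of LOX-IMVI cells were grouped by sample title. Per the methods of the study, mapping to hg38 and counting were done in CLC Genomics Workbench, without use of strand. The authors deposited whole-number counts of exon and intron reads per gene, total and unique. Total reads, which include those with several mapping places, were tested, and TPM was computed anew from those exon counts and the exon length.

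Genes passing filterByExpr (13843 in exon and 12119 in intron reads) were tested after TMM scaling with the two-sided, robust quasi-likelihood test in edgeR 4.0.16 (R 4.3.3), and P was adjusted by Benjamini-Hochberg over all of them. The SE is the log2 fold change over the square root of F. Exon and intron changes were compared by an interaction with library as block. The 2-fold limit follows the study, whose further limit on a difference has no stated unit and was not used. The paper describes the libraries of a group as independent experiments, and the labels give a replicate number only. Intervals cover counting error only. Alternatives were RLE factors, library size alone, 2 other filters, a likelihood ratio test, DESeq2 1.42.0, unique reads, total gene reads, leaving out the 10 most abundant genes or each library, and a replicate block. Unique intron reads were added after the data were seen.

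In simulated data for shNFKBIZ against shCtrl, with 13690 genes tested in exon reads, 98% of 2-fold rises and 88% of 2-fold falls were recovered. The shares were 80% and 58% in intron reads (11875 genes tested) and 72.5% and 65.85% for exon against intron reads (10841 genes tested), so that changes of this size could be missed there. The genes, lists and tests were chosen with earlier results of these data known. All 36 genes are named, with full statistics for sensors, factors, targets past the 2-fold limit and genes called in exon against intron reads.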

Additional observations from a re-analysis of the deposited data

How the results depend on the processing

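Exon changes of HIF1A, EPAS1, ARNT, VHL, HIF1AN, EGLN1, STC1, ADM, ANGPTL4, PLOD2, BHLHE40, MXI1 and DDIT4 kept their direction and their call under the 16 alternatives run on each. NFKBIZ ranged from -1.83 to -1.66, and from -1.83 to -1.72 when 1 library was left out. The 2-fold limit held for 9 of the 36 genes, for 8 with library size alone, where ADM was at -0.97, and for 11 without a filter. Over all genes it held for 1241, 1252 and 1740 in the same order. Leaving out 1 library gave from 9 to 11 genes in exon reads, from 24 to 26 called genes, and from 7 to 10 genes past 2-fold in intron reads. Over all genes these fits called 8369 to 8737 in exon reads in place of 9039, and 1315 to 1361 past 2-fold. The replicate numbers paired the libraries weakly at most. For pairs with the same number, deviations from the group means had correlations of 0.0207, 0.0561 and 0.0288. For pairs with different numbers they ran from -0.0376 to 0.0109, and each library correlated best with its own number. A replicate block called the same number of the 36 genes as the fit without it, 27 of 32 in exon reads and 17 of 25 in intron reads. It called 19 in place of 18 of the further pathway genes, and over all genes 9303 in place of 9039 in exon reads.

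DESeq2 called 5 of the 36 genes higher in place of 9, and over all genes 3623 in place of 4496. Library size alone called 7 of the further pathway genes higher in place of 3, and over all genes 5659 in place of 4496. Under that scaling the median log2 fold change of exon reads over all genes was 0.0937, against 0.0043 in the main fit. With at least 10 counts in every library, 1 of the 36 genes was called higher in intron reads, 4 were past 2-fold, all 4 lower and 0 higher, and over all genes 466 were past 2-fold in intron reads, 281 lower and 185 higher, and 338 were higher past 2-fold in exon reads, since fewer genes are tested there. In exon against intron reads, unique reads left 1 gene with the lower exon change, and leaving out 1 library gave 1 to 3 such genes and 5 to 10 genes in all. With library size alone the log2 fold changes of VEGFA (0.087), PLOD1 (0.073) and NDRG1 (0.043) turned positive, uncalled as before. Leaving out 1 library gave -0.0715 to 0.044 for VEGFA and -0.0497 to 0.0111 for PLOD1, and for the exon minus intron difference -0.18 to 0.0095 for HIF1A, -0.21 to 0.0445 for P4HA1, -0.20 to 0.0113 for P4HA2, -0.075 to 0.75 for BHLHE40 and -0.0011 to 0.14 for ERO1A. Further exon against intron differences were called without shCtrl replicate 1 (EPAS1 0.84, BNIP3 0.46), shCtrl replicate 2 (ANGPTL4 1.29, MXI1 -0.75), shCtrl replicate 3 (HIF1AN 0.87) or shNFKBIZ replicate 1 (HIF1AN 0.85). Among 11 settings, the uncalled main fit included, the HIF1AN difference was called in 5 and ranged from 0.549 to 0.869. Among 10 such settings, that of EPAS1 was called in 2 and ranged from 0.514 to 0.878. EGLN2 was called in exon reads with library size alone (0.15), the scaling under which the median over all genes was 0.0937. The causes of the other differences between settings were not tested. The likelihood ratio test, DESeq2 and total gene reads were not run on intron reads. PPFIA4 was called with unique exon reads (-0.93) and total gene reads (-0.88). Depth limits EGLN3, CA9, CA12 and LOX, which had at most 20 reads summed over a group.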
